A study of Rattus norvegicus with 12 samples.

Results

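The enzymes that carry glucose carbon through glycolysis and the citrate cycle were examined in RNA sequencing counts from the ventral dentate gyrus of rats, a hippocampal region rich in granule neurons. The 38 genes were taken by symbol from a list of enzyme names and not by a measured threshold. The list holds 9 enzymes of upper glycolysis, 6 of lower glycolysis, 2 lactate dehydrogenase subunits, 4 pyruvate dehydrogenase subunits, 3 pyruvate dehydrogenase kinases and 14 enzymes of the citrate cycle or their cytosolic counterparts. Of the 38, 37 were among the 17172 genes counted and 36 were among the 11750 genes with enough counts to test. Idh3b, a subunit of mitochondrial isocitrate dehydrogenase, was not found under that symbol. Eno2, the neuronal enolase, failed the filter on low counts.

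All animals were male rats labelled Sprague-Dawley, and each of 4 groups had 3 libraries. FRL vehicle came from the Flinders Resistant Line (FRL) given tap water for 7 days. FSL vehicle came from the Flinders Sensitive Line (FSL), a line bred as a rat model of depression whose usual control line is FRL, given tap water for the same time. The LAC non-responder and LAC responder groups were FSL rats that drank L-acetyl-carnitine (LAC), the acetyl ester of carnitine, at 0.3% (w/v) for 7 days, which the labels put at about 210 mg/kg per day. Daily intake was 30 ml of the LAC solution and 31 ml of water. No FRL group received LAC, so the lines can be compared only untreated and LAC only within FSL. The sources used here give no ages, no criterion that parted responders from non-responders and no number of animals behind a library. The labels call the libraries biological replicates. The title of the series names energetics in ventral hippocampus, and the comparisons here ask whether transcripts of the central energy pathway differed between the lines, with LAC and with response.

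Glycolysis splits glucose to pyruvate in the cytosol and yields ATP and NADH. Its upper steps spend ATP through hexokinase and phosphofructokinase, and its lower steps regain it through phosphoglycerate kinase and pyruvate kinase. Lactate dehydrogenase interconverts pyruvate and lactate, and in brain lactate made by astrocytes is widely held to feed neurons. Pyruvate dehydrogenase turns pyruvate into acetyl-CoA inside mitochondria, and the pyruvate dehydrogenase kinases switch it off by phosphorylation. The citrate cycle oxidises that acetyl-CoA, and its acetyl groups can also leave mitochondria as citrate or as acetyl-carnitine, the compound given to the treated rats.

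The sequence before the start of 4 of these genes is shown, because Idh2, Hk2 and Pkm led the comparisons below and Ldha is a textbook hypoxia target in glycolysis. The sequences are the 250 bases before the RefSeq start on build GRCr8, 5′ to 3′ on the gene's strand, with matches on either strand to GGGCGG (the core of a GC box) and ACGTG (the core of the hypoxia response element, also held within the E-box CACGTG) in capitals.
Idh2, chr1:143467249-143467498 on the minus strand: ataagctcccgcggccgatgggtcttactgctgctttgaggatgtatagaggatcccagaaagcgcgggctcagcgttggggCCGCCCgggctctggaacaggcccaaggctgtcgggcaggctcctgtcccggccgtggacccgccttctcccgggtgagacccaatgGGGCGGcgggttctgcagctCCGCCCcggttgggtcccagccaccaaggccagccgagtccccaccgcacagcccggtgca
Hk2, chr4:116841276-116841525 on the minus strand: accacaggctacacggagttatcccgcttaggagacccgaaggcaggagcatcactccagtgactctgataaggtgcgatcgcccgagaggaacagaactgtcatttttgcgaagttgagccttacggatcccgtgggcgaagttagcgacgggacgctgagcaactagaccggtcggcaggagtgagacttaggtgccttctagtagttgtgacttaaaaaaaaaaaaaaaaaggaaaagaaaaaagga
Pkm, chr8:68953385-68953634 on the plus strand: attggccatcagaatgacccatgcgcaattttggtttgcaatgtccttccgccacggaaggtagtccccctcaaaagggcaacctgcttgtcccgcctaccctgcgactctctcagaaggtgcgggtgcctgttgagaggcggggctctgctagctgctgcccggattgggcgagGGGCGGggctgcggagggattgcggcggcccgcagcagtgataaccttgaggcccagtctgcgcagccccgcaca
Ldha, chr1:106507842-106508091 on the plus strand: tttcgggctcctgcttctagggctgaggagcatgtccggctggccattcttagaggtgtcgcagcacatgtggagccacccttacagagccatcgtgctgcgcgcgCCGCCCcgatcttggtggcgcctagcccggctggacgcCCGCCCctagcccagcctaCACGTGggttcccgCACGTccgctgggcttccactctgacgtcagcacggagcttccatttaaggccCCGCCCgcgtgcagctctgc
The Idh2 stretch held 3 GC box matches and the Pkm stretch 1, and neither held ACGTG. Hk2 had no match to either motif. Ldha had 3 GC box matches and 3 ACGTG matches, of which a pair is the palindrome CACGTG read on both strands. RefSeq gave 40 such stretches for 36 of the 38 genes, some with more than 1 start, and Pgk1 and Idh3a were not matched. GGGCGG or its complement was in 24 of the 40 (60%), beside 30.5% of 33469 stretches of all genes. ACGTG was in 13 of 40 (32.5%), beside 16.6% of all genes, and stood in 8 of the 20 stretches of glycolysis and lactate dehydrogenase genes and 5 of the 20 others. TATAAA was in 2 of 40, beside 12.9%, and CCAAT in 17 of 40 (42.5%), beside 34.0%, each searched on both strands. These are matches of letters, and no factor binding was measured.

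Counts in genes ran from 5905387 to 8137618 per library, and the 37 enzymes held 1.30% to 1.64% of them. Levels are given as CPM, the counts of a gene scaled to a fixed total of gene counts after TMM normalization. They are compared between libraries and not between genes, because no transcript lengths were used. In bulk tissue, fewer cells of a type and less RNA per cell cannot be told apart. Prox1, a defining gene of dentate granule neurons, stood at 51.6 to 129 CPM in 10 libraries but only 9.19 CPM in LAC responder 1 and 10.4 CPM in FRL vehicle 2. Markers of other tissue also differed. LAC responder 1 had 569 CPM in 9 summed thalamus and hypothalamus markers, against 89.2 to 214 CPM in the other 11 libraries, and 156 CPM of Tcf7l2, a thalamic gene, against 6.67 to 20.4 CPM. The summed level of 15 meninges and fibroblast markers was 3359.8 CPM in FSL vehicle 3 and 119 to 1119 CPM in the other 11 libraries, with 1 or 2 of the 15 at 0 in each. The 16 choroid plexus markers summed to 8534 CPM in LAC non-responder 1 and to 5195 and 907 CPM in FSL vehicle 1 and 3, against 149 to 289 CPM in the other 9 libraries. Leaving these 3 out keeps FSL vehicle 2 as the lone library of its group, and it is then assumed to vary like the other groups. FSL vehicle 3 was also lowest in 11 general neuron markers, at a summed 6658 CPM against 8217 to 10254 CPM.

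FSL vehicle 3 stood apart for the enzymes as well. It was the lowest of the 12 libraries for 25 of the 36 tested enzymes, namely 13 of the 16 glycolysis and lactate dehydrogenase genes and 12 of the 20 pyruvate dehydrogenase and citrate cycle genes. The same library was the lowest for 21.1% of all genes tested and the highest for 22.5%. Its median log2 deviation from the 12-library mean was -0.28 for the glycolysis group and -0.17 for the others. FRL vehicle 2 was the highest library for 12 of the 36, with medians of 0.15 and 0.07. In the other 10 libraries the glycolysis medians lay between -0.10 and 0.10. FSL vehicle 3 had the highest meninges markers and the lowest general neuron markers. Endothelial and pericyte markers peaked there too, at 1616 CPM against 378 to 807 CPM, and blood cell markers at 1082 CPM against 215 to 772 CPM. Choroid plexus markers were higher in FSL vehicle 1 and LAC non-responder 1, where the glycolysis medians were -0.10 and 0.10. The part of these tissues in the enzyme levels was not tested. FRL vehicle 2 is also a library low in Prox1. The medians over the 36 enzymes and their counts at an unadjusted p under 0.05 that involve FSL vehicle are given below with and without FSL vehicle 3, and the other summaries only with it.

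**Figure D1:**
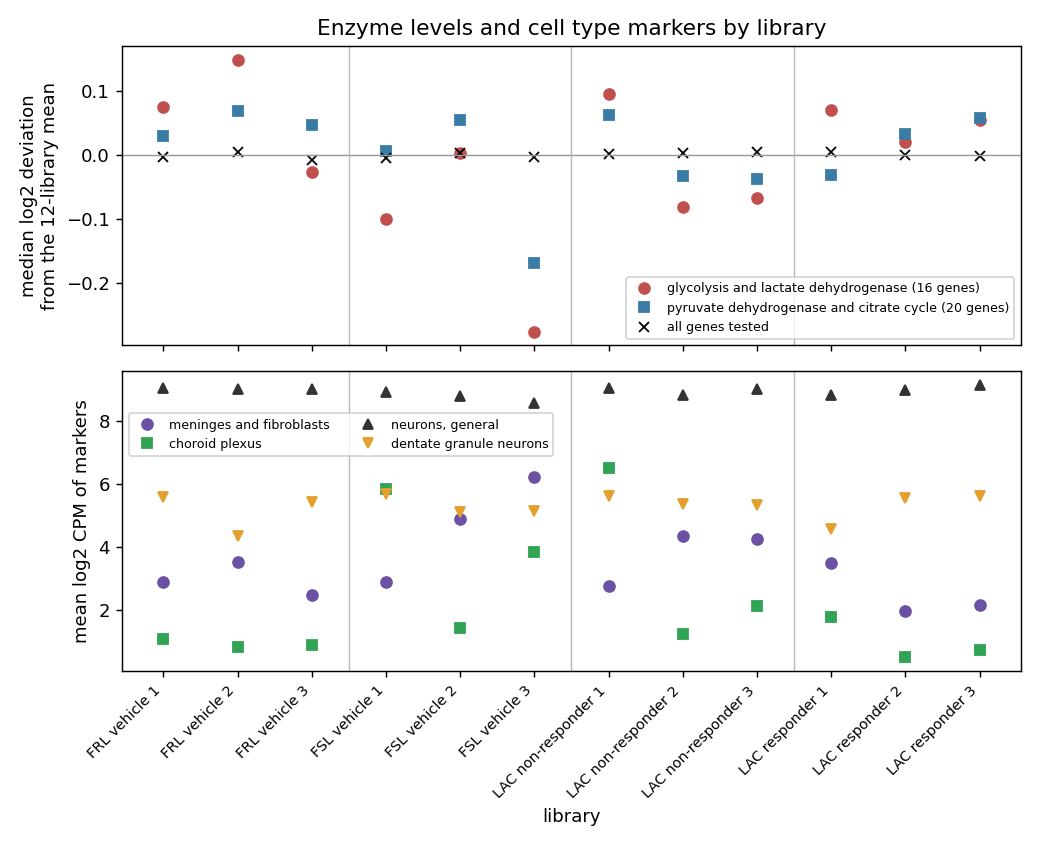
Top: median log2 deviation from the 12-library mean for 16 glycolysis and lactate dehydrogenase genes, 20 pyruvate dehydrogenase and citrate cycle genes and all genes tested, by library. Bottom: mean log2 CPM of 4 marker lists. FSL vehicle 3 has the lowest enzyme medians (-0.28 and -0.17) and the highest meninges mean (6.23 log2 CPM).

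Between the untreated lines the enzymes leaned lower in FSL vehicle, but no enzyme passed the test. The fitted log2 fold change of FSL vehicle over FRL vehicle was below 0 for 31 of 36 enzymes, with a median of -0.16, while the median of all genes tested was -0.01. By edgeR's quasi-likelihood test with Benjamini-Hochberg adjustment 0 of 36 enzymes were called, beside 0.0681% of all genes. At an unadjusted p under 0.05, 3 enzymes were higher in FSL vehicle (Idh2, Hk2, Suclg2), near the background of 9.35%, and 5 were lower (Pkm, Pfkp, Gpi, Hk1, Pdk2), beside a background of 4.53%. These counts rested on single libraries: leaving out FSL vehicle 3 gave 1 higher and 1 lower, FSL vehicle 2 gave 2 and 16, and FSL vehicle 1 gave 3 and 9. Leaving out FRL vehicle 2 gave 3 and 1, and FRL vehicle 1 gave 2 and 3. The 3 libraries of FSL vehicle lay wholly above those of FRL vehicle for 4 enzymes, beside 7.57% of all genes, and wholly below for 10, beside 6.23%. By role, the median was -0.19 in upper glycolysis, -0.22 in lower glycolysis, -0.15 in the pyruvate dehydrogenase subunits, -0.22 in their kinases and -0.07 in the citrate cycle group. Without FSL vehicle 3 the median of the 36 was -0.09, with 6 above 0, and without the 3 choroid-rich libraries it was -0.03, with 16 above 0. Without the 2 libraries low in Prox1 it was -0.12, with 5 above 0. All 11 general neuron markers also had fitted log2 fold changes below 0 between the lines, with a median of -0.24. They summed to 8750, 8379 and 6658 CPM in FSL vehicle 1, 2 and 3, and to 9289 to 9618 CPM in FRL vehicle. All 10 tested GABAergic interneuron markers were below 0 too, with a median of -0.32. All 12 microglia markers were above 0, with a median of 0.46. So were all 13 tested meninges and fibroblast markers (2.46) and all 15 tested choroid plexus markers (4.84). Of 14 endothelial and pericyte markers 12 were above 0, with a median of 0.74. With the meninges mean as a covariate the enzyme median was -0.09, with 6 above 0. The part of these markers in the enzyme leaning was not tested further.

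Against FSL vehicle, LAC responders had fitted log2 fold changes above 0 for 28 of 36 enzymes, with a median of 0.12 beside 0.01 for all genes. None of the 36 enzymes passed edgeR's quasi-likelihood test with Benjamini-Hochberg adjustment, and 0% of all genes did. An unadjusted p under 0.05 was reached by 3 enzymes that were higher in responders (Pkm, Pfkp, Eno1), beside 4.61% of all genes, and by Idh2 alone among those lower, beside 9.17%. The count of higher enzymes was 0 when FSL vehicle 3 was left out, 13 for FSL vehicle 2, 5 for FSL vehicle 1, 1 without responder 1 and 2 without either other responder library. That of lower enzymes was 2 without FSL vehicle 2 or responder 1. The responder libraries lay wholly above those of FSL vehicle for 5 enzymes (Pkm, Pfkp, Aldoc, Aldoa, Gapdh), beside 6.37%, and wholly below for 1 (Idh2), beside 6.14%. The median over 5 lower glycolysis enzymes was 0.24, over 9 upper glycolysis enzymes 0.14 and over 13 citrate cycle enzymes 0.05. Without FSL vehicle 3 the median of the 36 was 0.04, with 22 above 0, and without the 3 choroid-rich libraries 0.01, with 21 above 0. The 11 general neuron markers all had fitted log2 fold changes above 0 in responders over FSL vehicle, with a median of 0.20. Of 12 microglia markers, 9 were below 0 and 3 above, with a median of -0.20. Of 13 oligodendrocyte markers, 12 were above 0, with a median of 0.58, and 7 were higher at an unadjusted p under 0.05, beside 4.61% of all genes. They summed to 5723 to 10658 CPM in responders and 4201 to 5804 CPM in FSL vehicle. All 13 tested meninges and fibroblast markers were below 0, with a median of -2.87. So were all 15 tested choroid plexus markers, with a median of -4.41. With the oligodendrocyte mean as a covariate the enzyme median was 0.17. With the meninges mean as a covariate the enzyme median was 0.02, with 22 above 0. The part of these marker lists was not tested further. This comparison and the line comparison share the FSL vehicle libraries, so the opposite leanings of the enzymes are not independent.

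LAC non-responders had fitted log2 fold changes over FSL vehicle above 0 for 30 of 36 enzymes, with a median of 0.07 beside -0.004 for all genes. No enzyme passed edgeR's quasi-likelihood test with Benjamini-Hochberg adjustment, and 0% of all genes did. At an unadjusted p under 0.05 there were 3 enzymes, all higher in non-responders (Pdk2, Pdk4, Pkm), beside 4.21% of all genes. Without FSL vehicle 2 there were 9 higher and 1 lower, and without any other single library of these groups there was 1. The non-responder libraries lay wholly above those of FSL vehicle for 3 enzymes, beside 550 of 11750 genes, and wholly below for 0, beside 366. Oligodendrocyte markers were higher in non-responders, as in responders: 12 of 13 had fitted log2 fold changes above 0, with a median of 0.72, and 10 had an unadjusted p under 0.05. They summed to 4201 to 5804 CPM in FSL vehicle and 7193 to 11788 CPM in non-responders. With their mean as a covariate the enzyme median was 0.12. All 11 general neuron markers had fitted log2 fold changes above 0 as well, with a median of 0.15. All 13 tested meninges and fibroblast markers were below 0, with a median of -1.29. With the meninges mean as a covariate the enzyme median was 0.04, with 28 above 0. The part of these marker lists in the enzyme median was not tested further. Without FSL vehicle 3 the median was 0.02, with 20 above 0, and without the 3 choroid-rich libraries it was -0.09, with 11 above 0. Without non-responder 1 it was 0.04 and without FSL vehicle 2 it was 0.13. Set side by side, responders and non-responders differed by a median of 0.04, with 22 of 36 above 0. This median was -0.0076, with 17 above 0, with the meninges marker mean as a covariate. It was 0.08 without non-responder 1 and also without the 3 choroid-rich libraries, 0.01 without non-responder 3 and 0.01 without responder 3. No enzyme and 0% of all genes passed edgeR's quasi-likelihood test with Benjamini-Hochberg adjustment between them. At an unadjusted p under 0.05 there was 1 enzyme, Idh2, beside 3.14% of all genes. The responder libraries lay wholly above those of non-responders for 0 enzymes, beside 677 of 11750 genes, and wholly below for 2, beside 651.

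Against FRL vehicle, 13 of 36 enzymes in LAC responders and 7 of 36 in LAC non-responders had fitted log2 fold changes above 0, with medians of -0.03 and -0.07. Without FRL vehicle 2 the responder median was 0.0096, with 19 above 0, and without both libraries low in Prox1 it was 0.0091, with 19 above 0, so its direction rested on that library. It was -0.04 without FRL vehicle 3. The non-responder median was -0.03 without FRL vehicle 2 or non-responder 2, -0.04 without non-responder 3 and -0.11 without non-responder 1. By edgeR's quasi-likelihood test with Benjamini-Hochberg adjustment 0 of 36 enzymes were called in either comparison, beside 0.0851% of all genes for responders and 0.0426% for non-responders. At an unadjusted p under 0.05 there were 0 enzymes for responders, beside 3.58% of all genes, and 2 for non-responders (Idh2 and Hk2, both higher), beside 5.24%. The responder libraries lay wholly above those of FRL vehicle for 1 enzyme, beside 640 of 11750 genes, and wholly below for 2, beside 571. For non-responders these counts were 3, beside 867, and 3, beside 714. The test for any difference among the 4 groups called 0 enzymes, beside 0.0255% of all genes. Its unadjusted p was under 0.05 for Idh2 and Pkm, which is 2 of 36 beside 9.02% of all genes. DESeq2 called no enzyme in the 6 pairwise comparisons and 1 over the 4 groups, Idh2, with an adjusted p of 0.0497. Limma-voom called none.

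**Figure D2:**
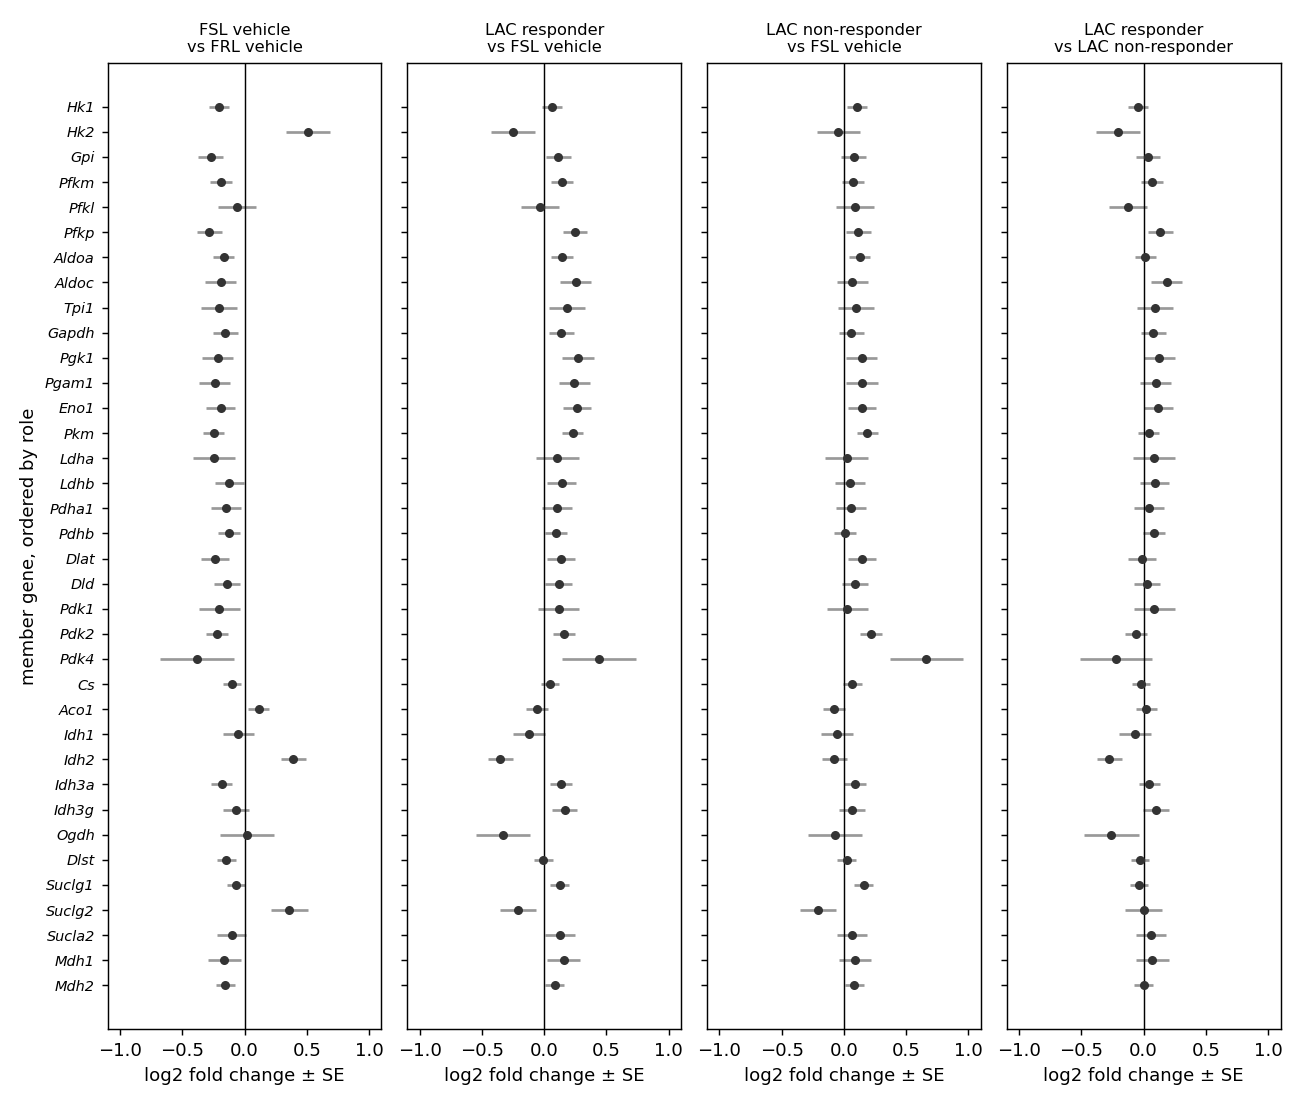
Fitted log2 fold change (x axis) with its standard error for 36 enzymes ordered by role, in 4 comparisons. Most points lie left of 0 for FSL vehicle against FRL vehicle (31 of 36) and right of 0 for responders against FSL vehicle (28 of 36). Idh2, Hk2, Suclg2, Aco1 and Ogdh lie on the opposite side in both.

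The spread of the enzymes across the study is given as a description. The coefficient of variation over the 12 libraries had a median of 9.95% over the 36 tested enzymes, beside 10.8% for the 9156 tested genes with a mean CPM at least that of the lowest of them, a set not matched in abundance. Citrate synthase (Cs), which makes citrate from acetyl-CoA and oxaloacetate, was the steadiest, at 224 to 264 CPM. Its highest library was 1.18-fold above its lowest. Pdk4, a kinase that inhibits pyruvate dehydrogenase, had the widest range of the tested enzymes, 2.51-fold from 6.30 to 15.8 CPM. Ogdh, a subunit of the 2-oxoglutarate dehydrogenase complex, varied widely within FSL vehicle: it stood at 242, 124 and 247 CPM in FSL vehicle 1, 2 and 3, a span that holds the other 9 libraries (153 to 237 CPM).

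**Figure D3:**
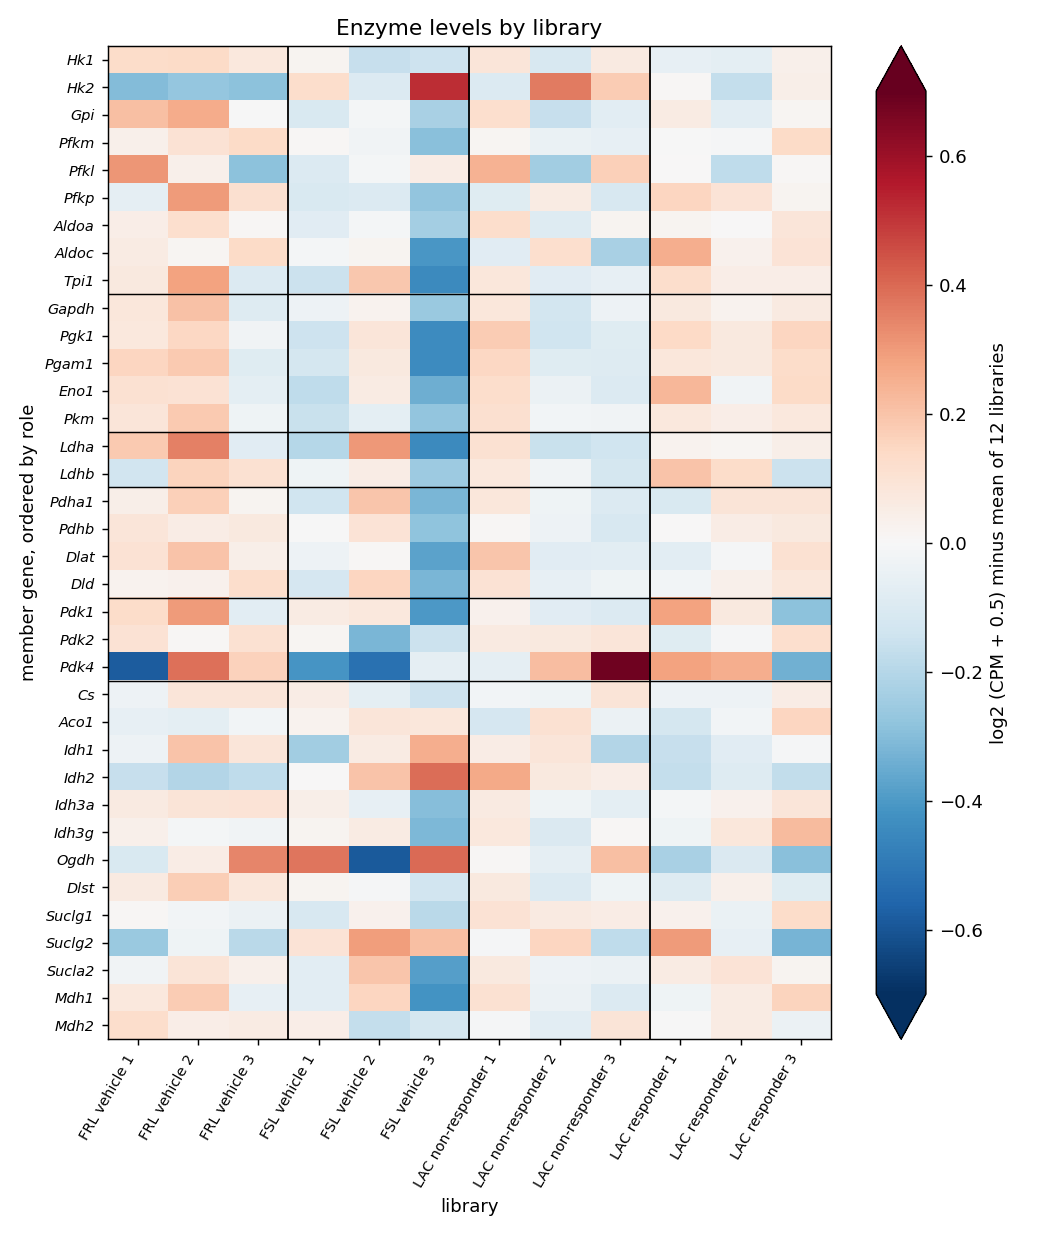
Each cell is the log2 level (CPM plus 0.5) of an enzyme in a library minus its mean over 12 libraries. Rows are 36 enzymes by role with lines between roles, and columns are libraries with lines between groups. The FSL vehicle 3 column is blue (below the mean) for most enzymes and most strongly red (above it) for Hk2, Ogdh and Idh2.

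Upper glycolysis starts with hexokinase, which traps glucose in the cell as its phosphate. Hk1 is the main brain isoform and Hk2 the inducible isoform of muscle and other tissues. Hk2 stood at 9.78, 10.001 and 9.88 CPM in FRL vehicle, at 13.3, 11.4 and 17.6 in FSL vehicle, at 11.3, 15.8 and 13.9 in LAC non-responders and at 12.3, 10.8 and 12.6 in LAC responders. All 9 FSL-line libraries were above the 3 of FRL vehicle, and FSL vehicle 3 was the highest. The log2 fold change of FSL vehicle over FRL vehicle was 0.51 ± 0.18 (SE), with an adjusted p of 0.270 in edgeR's quasi-likelihood test with Benjamini-Hochberg adjustment. That of non-responders over FRL vehicle was 0.47 ± 0.18. Without FSL vehicle 3 the line difference in Hk2 was 0.32, with the meninges marker mean as a covariate 0.29, and without the 3 choroid-rich libraries 0.20.

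Hk1 leaned the other way. It stood at 529, 529.6 and 508 CPM in FRL vehicle, 489.7, 432 and 436 in FSL vehicle, 513, 447 and 503.6 in non-responders and 463, 461 and 495 in responders. Every FSL vehicle library and every responder library was below every FRL vehicle library, with log2 fold changes of -0.21 ± 0.08 and -0.14 ± 0.08. Gpi, which converts glucose-6-phosphate to fructose-6-phosphate, read 625, 647 and 540.0 CPM in FRL vehicle, 502, 536 and 462 in FSL vehicle, 586, 484 and 514 in non-responders and 564, 514 and 545 in responders. Its log2 fold change over FRL vehicle was -0.27 ± 0.10 in FSL vehicle, where groups did not overlap, -0.19 ± 0.10 in non-responders and -0.16 ± 0.10 in responders, where they did.

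Phosphofructokinase commits sugar to glycolysis and is built from the subunits Pfkm, Pfkl and Pfkp. Pfkp, the platelet-type subunit that is also abundant in brain, stood at 474, 609 and 535 CPM in FRL vehicle, 459, 462 and 408 in FSL vehicle, 466, 515 and 458 in non-responders and 549.9, 528 and 500.2 in responders. FSL vehicle lay wholly below FRL vehicle (-0.28 ± 0.10) and wholly below responders, whose log2 fold change over FSL vehicle was 0.25 ± 0.10. Without FSL vehicle 3 that value for Pfkp was 0.19. Against non-responders, responders differed by 0.13 ± 0.10 with overlapping libraries. Pfkm ran from 447 CPM in FSL vehicle 3 to 602 CPM, and its line difference was -0.19 ± 0.09. Pfkl, the liver-type subunit, ranged from 129.8 to 197 CPM within FRL vehicle alone, and its log2 fold change was -0.06 ± 0.15 between the lines and -0.04 ± 0.15 for responders over FSL vehicle.

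Aldolase splits fructose-1,6-bisphosphate. Aldoc, its brain isoform and in hippocampus largely an astrocyte gene, stood at 998.8, 968 and 1053 CPM in FRL vehicle, 949, 971 and 723 in FSL vehicle, 908, 1039 and 820.1 in non-responders and 1143, 980.0 and 1024 in responders. Responders were wholly above FSL vehicle (0.25 ± 0.12), and the margin between the nearest libraries was 971 to 980.0 CPM. Over non-responders the difference was 0.19 ± 0.12, and without responder 1 it was 0.12, without non-responder 3 it was 0.10. Aldoa, the muscle-type isoform expressed in most tissues, ran from 1329 to 1707 CPM. Triosephosphate isomerase (Tpi1) ran from 494 to 818 CPM, with FSL vehicle holding both its lowest library and, at 767 CPM, the library next below the highest.

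The 5 tested enzymes of lower glycolysis shared their lowest library. Gapdh, Pgk1, Pgam1, Eno1 and Pkm each had their lowest library in FSL vehicle 3, at 1885, 364, 398, 589 and 1029 CPM. Pkm, pyruvate kinase, makes pyruvate and ATP in the last step. It stood at 1320.3, 1413 and 1222 CPM in FRL vehicle, 1119, 1185 and 1029 in FSL vehicle, 1345, 1227 and 1224 in non-responders and 1312, 1288 and 1309 in responders. All 3 FSL vehicle libraries were below all 9 others, and the 9 others overlapped. The log2 fold change was -0.25 ± 0.08 for FSL vehicle over FRL vehicle (adjusted p = 0.268, edgeR quasi-likelihood with Benjamini-Hochberg adjustment). It was 0.23 ± 0.08 for responders and 0.19 ± 0.08 for non-responders over FSL vehicle. Without the 3 choroid-rich libraries these values for Pkm were -0.15, 0.13 and 0.05, and without FSL vehicle 3 they were -0.19, 0.17 and 0.14.

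Eno1, the widespread enolase, stood at 801, 799 and 709.7 CPM in FRL vehicle, 658, 775 and 589 in FSL vehicle, 812, 725 and 698 in non-responders and 877, 733 and 818 in responders. FSL vehicle 2 lay among the responders, and the log2 fold change of responders over FSL vehicle was 0.26 ± 0.11. Pgk1, the first ATP-yielding enzyme of glycolysis, and Pgam1, phosphoglycerate mutase, had values of 0.27 ± 0.13 and 0.24 ± 0.13 in that comparison, and Gapdh 0.14 ± 0.10. Against FRL vehicle the responder values of these 5 enzymes lay between -0.02 and 0.07. Eno2 is known as an abundant neuronal enolase, yet it had 1 to 5 counts per library, 0.124 to 0.707 CPM. A count of 3 in a library is worth 0.368 to 0.511 CPM. Its level is therefore not taken as a measure of Eno2 RNA here. On GRCr8 its neighbours are Atn1 and Lrrc23.

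Many of these glycolytic genes have pseudogene copies in the genome, and reads that align to several places were left out of the deposited counts. RefSeq names 201 pseudogenes after 15 of the 38 genes, with 81 for Gapdh, 31 for Eno1, 30 for Ldha and 19 for Pkm. Levels of these genes are uncertain for that reason. In FSL vehicle 3 the median log2 deviation was -0.33 over the 14 tested enzymes with such copies and -0.15 over the 22 without. The medians of FSL vehicle over FRL vehicle were -0.18 and -0.11. The sets also differ by pathway. Gapdh, Pgk1, Pgam1, Eno1, Pkm, Ldha and Ldhb had such copies. Idh2, Hk2, Suclg2, Aco1 and Ogdh, the enzymes fitted higher in FSL vehicle than FRL vehicle, had none. Copies and pathway coincide only in part. Hk1, Gpi, Pfkm, Pfkl, Pfkp and Aldoc, like Hk2, are glycolytic genes without such copies. The line differences of these genes other than Hk2 ran from -0.28 to -0.06. Pdha1, Dlat, Dld, Mdh1 and Mdh2 lie outside glycolysis and had such copies, with line differences from -0.24 to -0.14. The parts of copies and of pathway were not tested. FSL vehicle 3 also had the largest share of reads with several alignments, 28.4%, against 24.3% to 26.5% in the other 11 libraries.

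Lactate dehydrogenase is a tetramer of Ldha and Ldhb subunits. Ldha ranged from 262 CPM in FSL vehicle 3 to 457 CPM in FRL vehicle 2, and FSL vehicle 2 was near the top at 440.4 CPM. The group means were 400.4 ± 59.1 CPM in FRL vehicle, 338 ± 92.0 in FSL vehicle, 343 ± 35.6 in non-responders and 364 ± 3.26 in responders (SD, n = 3). The line difference was -0.25 ± 0.17. Ldhb ranged from 325 to 445 CPM and its line difference was -0.12 ± 0.12. Neither subunit separated any pair of groups, and the ratio of Ldha to Ldhb gave an exact permutation p of 0.790 among the 4 groups.

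Pyruvate dehydrogenase joins glycolysis to the citrate cycle. Its subunits Pdha1, Pdhb, Dlat and Dld each had a fitted log2 fold change below 0 in FSL vehicle over FRL vehicle, from -0.12 to -0.24, and above 0 in responders over FSL vehicle, from 0.10 to 0.14. None reached an unadjusted p under 0.05. Pdhb, part of the catalytic subunit, was tight at 123 to 125 CPM in FRL vehicle and stood at 118, 126 and 97.1 CPM in FSL vehicle. Dlat, the acetyl-transferring core, stood at 157 to 175 CPM in FRL vehicle and wholly below it, at 118 to 154 CPM, in FSL vehicle.

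The kinases Pdk1, Pdk2 and Pdk4 shut pyruvate dehydrogenase off, and Pdk4 is known to be induced by fasting and fat oxidation. Pdk2 stood at 130.5, 122 and 131 CPM in FRL vehicle, 123, 97.3 and 109 in FSL vehicle, 127, 128 and 129 in non-responders and 115, 121 and 132 in responders. Non-responders lay wholly above FSL vehicle, with a log2 fold change of 0.22 ± 0.09 and an adjusted p of 0.976 (edgeR quasi-likelihood, Benjamini-Hochberg). Without FSL vehicle 2 it was 0.14, and without the 3 choroid-rich libraries 0.40. Pdk4 stood at 6.30, 12.8 and 10.9 CPM in FRL vehicle, 7.14, 6.58 and 9.24 in FSL vehicle, 9.24, 11.3 and 15.8 in non-responders and 11.9, 11.6 and 7.56 in responders. Its value for non-responders over FSL vehicle was 0.66 ± 0.29, the largest fold of any enzyme in that comparison, with the same adjusted p in edgeR. Without non-responder 3, its highest library, Pdk4 differed by 0.42, with the oligodendrocyte marker mean as a covariate by 0.40, and without the 3 choroid-rich libraries by 1.05. Responders differed from FSL vehicle in Pdk4 by 0.44 ± 0.30. Pdk1 ran from 32.6 to 53.2 CPM with overlap between all groups.

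**Figure D4:**
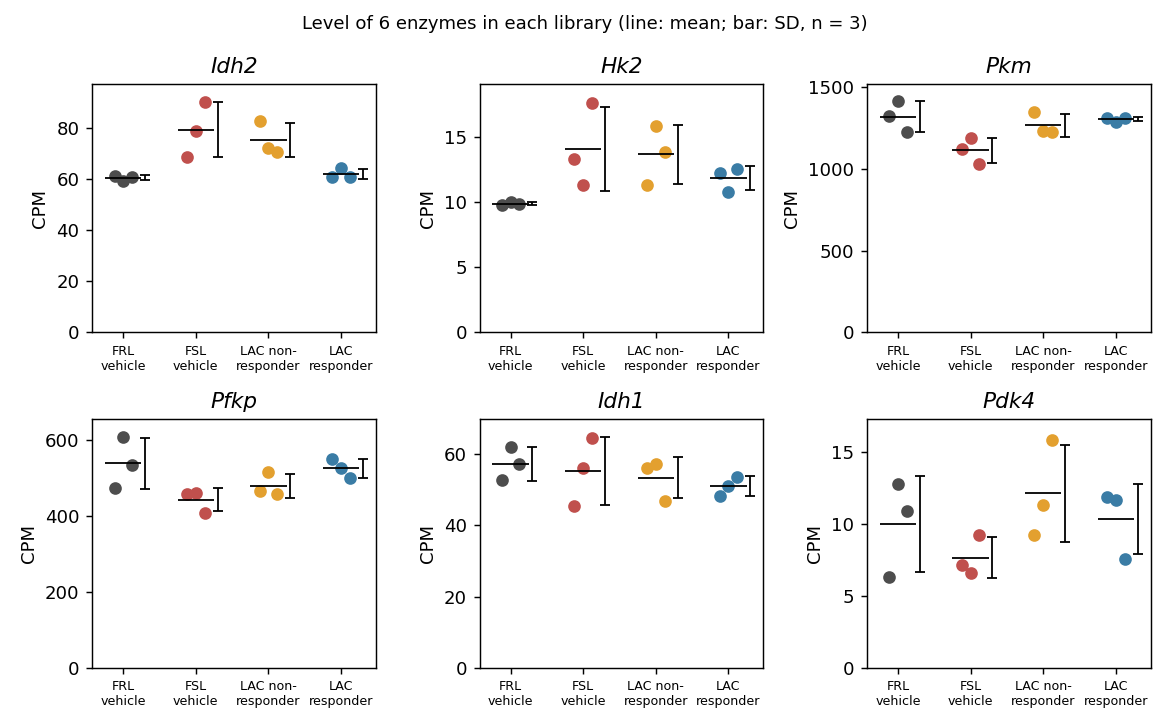
CPM (y axis) of 6 enzymes in each of 12 libraries by group, with the group mean and SD (n = 3). Idh2 in FRL vehicle and responders (59.3 to 64.3 CPM) lies below every library of FSL vehicle and non-responders (68.7 to 90.1 CPM), and Pkm in FSL vehicle (1029 to 1185 CPM) lies below all other libraries.

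In the citrate cycle group the smallest p between the lines was that of Idh2, the NADP-dependent isocitrate dehydrogenase of mitochondria, which makes 2-oxoglutarate and the NADPH used by the mitochondrial glutathione system. Idh2 stood at 61.2, 59.3 and 60.6 CPM in FRL vehicle (mean 60.4 ± 0.98, SD) and at 68.7, 78.7 and 90.1 CPM in FSL vehicle (79.2 ± 10.8). It stood at 82.6, 72.0 and 70.7 CPM in non-responders (75.1 ± 6.54) and at 60.9, 64.3 and 60.7 CPM in responders (62.0 ± 2.02). Every library of FSL vehicle and of non-responders was above every library of FRL vehicle and of responders, and within each of these pairs the groups overlapped. The log2 fold change was 0.39 ± 0.10 for FSL vehicle over FRL vehicle and 0.31 ± 0.10 for non-responders over FRL vehicle. Responders differed by -0.35 ± 0.10 from FSL vehicle, by -0.28 ± 0.10 from non-responders and by 0.04 ± 0.10 from FRL vehicle. None passed: the adjusted p values in edgeR's quasi-likelihood test with Benjamini-Hochberg adjustment were 0.238, 0.841, 0.266, 0.992 and 1.

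The Idh2 values depended on 1 library of FSL vehicle for their side of the threshold. Without FSL vehicle 1, the lowest of its group, the line difference was 0.48 (adjusted p = 0.0343, edgeR quasi-likelihood, Benjamini-Hochberg) and that of responders over FSL vehicle -0.44 (adjusted p = 0.0380). Without FSL vehicle 3 they were 0.29 and -0.25, and adjusted p values over all alternatives, DESeq2 and limma-voom included, ran from 0.0343 to 0.811 and from 0.0380 to 0.907. The Idh2 order in FSL vehicle was also that of the meninges marker mean, 2.89, 4.90 and 6.23 log2 CPM in libraries 1, 2 and 3. In responders that mean was 1.98 to 3.49, and in FRL vehicle 2.48 to 3.52. In non-responder 1, the highest Idh2 library of its group, the meninges mean was 2.77 and the choroid plexus mean 6.49, the highest of the 12. With the meninges mean as a covariate, Idh2 differed by 0.32 between the lines and by -0.26 between responders and FSL vehicle. Without the 3 choroid-rich libraries the values were 0.385 and -0.35. The part of these tissues in the Idh2 levels was not tested further.

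Idh1 is the cytosolic counterpart of Idh2. It stood at 52.6, 62.1 and 57.2 CPM in FRL vehicle, 45.4, 56.1 and 64.5 in FSL vehicle, 56.1, 57.4 and 46.8 in non-responders and 48.1, 51.1 and 53.7 in responders, with all groups overlapping. Its group means were 57.3 ± 4.76 CPM in FRL vehicle, 55.4 ± 9.57 in FSL vehicle, 53.4 ± 5.77 in non-responders and 50.98 ± 2.79 in responders. The NAD-dependent enzyme of the cycle, represented by Idh3a and Idh3g, had line differences below 0. Idh3a stood at 235 to 241 CPM in FRL vehicle and wholly below, at 183 to 231 CPM, in FSL vehicle (-0.18 ± 0.09). Idh3g ranged from 128 to 185 CPM. Suclg2, the GTP-forming subunit of succinyl-CoA synthetase, resembled Idh2 in the line comparison: it stood at 53.9, 63.5 and 56.7 CPM in FRL vehicle, 69.1, 79.5 and 74.9 in FSL vehicle, 64.4, 71.9 and 57.2 in non-responders and 79.8, 62.1 and 51.6 in responders. FSL vehicle lay wholly above FRL vehicle (0.36 ± 0.15), and responders overlapped every group. Sucla2, the ATP-forming subunit, stood at 208, 226 and 217 CPM in FRL vehicle, 201, 243 and 162 in FSL vehicle, 222, 206 and 206 in non-responders and 221, 226 and 214 in responders, and all groups overlapped.

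Dlst, the transferase core of the 2-oxoglutarate dehydrogenase complex, stood at 157, 169 and 159 CPM in FRL vehicle, 153, 149 and 137 in FSL vehicle, 158, 141 and 147 in non-responders and 141, 154 and 141 in responders. FSL vehicle and responders were wholly below FRL vehicle, each with a log2 fold change of -0.15 ± 0.07, and non-responders overlapped it. The other citrate cycle members were close between groups. Cs, the cytosolic aconitase Aco1, the shared succinyl-CoA synthetase subunit Suclg1 and the malate dehydrogenases Mdh1 and Mdh2 had line differences from -0.16 to 0.11. Non-responders were wholly above FSL vehicle in Suclg1, at 114 to 118 CPM against 96.4 to 112 CPM (0.16 ± 0.07). Mdh1, the cytosolic malate dehydrogenase of the malate-aspartate shuttle, ran from 643 CPM in FSL vehicle 3 to 974 CPM in FRL vehicle 2.

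A ratio of 2 related enzymes within a library is free of library scaling, and 11 such pairs were compared among the 4 groups by an exact permutation test of the F statistic. None passed after Benjamini-Hochberg adjustment over the 11 pairs. The log2 ratio of Idh1 to Idh2 came closest (p = 0.00526, adjusted p = 0.0579, exact permutation test). Its group means were -0.08 ± 0.14 in FRL vehicle, -0.52 ± 0.06 in FSL vehicle, -0.49 ± 0.14 in non-responders and -0.28 ± 0.09 in responders (SD, n = 3). By library it read -0.22, 0.07 and -0.08 in FRL vehicle, -0.59, -0.49 and -0.48 in FSL vehicle, -0.56, -0.33 and -0.59 in non-responders and -0.34, -0.33 and -0.18 in responders. FSL vehicle lay wholly below both FRL vehicle and responders, and FRL vehicle and responders overlapped.

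The log2 ratio of Hk2 to Hk1 averaged -5.71 ± 0.04 in FRL vehicle, -5.02 ± 0.34 in FSL vehicle, -5.16 ± 0.34 in non-responders and -5.31 ± 0.09 in responders (p = 0.0397, adjusted p = 0.218, exact permutation test). All 9 FSL-line libraries, from -5.49 to -4.62, were above the 3 of FRL vehicle, from -5.75 to -5.68. The ratio of Sucla2 to Suclg2 averaged 1.90 ± 0.06, 1.42 ± 0.27, 1.72 ± 0.17 and 1.80 ± 0.30 in the same order of groups (p = 0.115, adjusted p = 0.422, exact permutation test). FSL vehicle lay below FRL vehicle in all 3 libraries and overlapped both LAC groups. The other 8 ratios had exact permutation p values from 0.633 to 0.945. They include Eno1 to Eno2, which carries no information because Eno2 had 1 to 5 counts, but which was counted in the adjustment. Without non-responder 2 the ratios of Idh1 to Idh2 and Hk2 to Hk1 passed, with adjusted exact permutation p values of 0.0200 and 0.0482. Without the 2 libraries low in Prox1 the adjusted exact permutation p of Idh1 to Idh2 was 0.285, and without the 3 choroid-rich libraries 0.345.

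**Figure D5:**
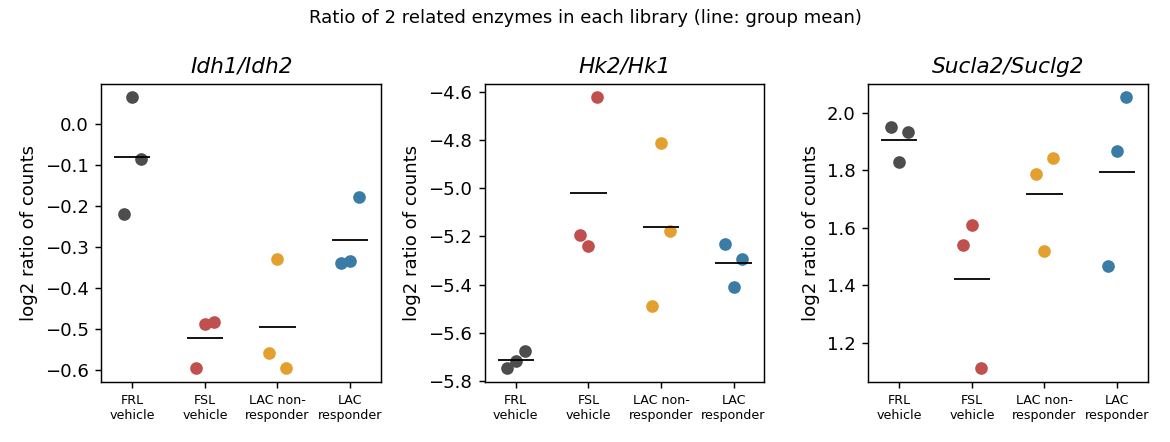
Log2 ratio of counts (y axis) of 3 enzyme pairs in each library by group, with the group mean as a line. FSL vehicle (-0.59 to -0.48) lies below FRL vehicle (-0.22 to 0.07) in Idh1/Idh2, and all FSL-line libraries lie above FRL vehicle in Hk2/Hk1.

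Further genes of the pathway were read from a list of 78 symbols that covers other isoenzymes, carriers of glucose, lactate and pyruvate, pentose phosphate, glycogen and gluconeogenic enzymes, pyruvate dehydrogenase regulators and the remaining citrate cycle enzymes. Of these, 55 were tested and 0 passed edgeR's quasi-likelihood test in any comparison. At an unadjusted p under 0.05, 2 were higher and 5 lower in FSL vehicle than FRL vehicle, and the median log2 fold change was -0.03. In responders over FSL vehicle 4 were higher and 1 lower, with a median of 0.07, and in non-responders over FSL vehicle 1 was higher and 1 lower. Between responders and non-responders there were 0. Of all genes, 9.35% were higher and 4.53% lower between the lines and 4.61% higher and 9.17% lower in responders over FSL vehicle, and 4.21% and 3.14% had such a p in the other comparisons.

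Acly, which cleaves exported citrate into cytosolic acetyl-CoA, averaged 376 CPM in FRL vehicle, 367 CPM in responders and 313 CPM in FSL vehicle. FSL vehicle lay wholly below both, with log2 fold changes of -0.27 ± 0.08 over FRL vehicle and, for responders over FSL vehicle, 0.23 ± 0.08. Adpgk, an ADP-dependent glucokinase, had group means of 81.2 (FRL vehicle) and 44.2 CPM (FSL vehicle) without overlap (-0.88 ± 0.31). Of 11750 genes tested, 732 lay wholly lower in FSL vehicle than FRL vehicle and 748 wholly higher in responders than FSL vehicle. Slc16a1 encodes the lactate and pyruvate carrier MCT1 and averaged 58.2 CPM in FSL vehicle and 70.9 CPM in both LAC groups. Every non-responder library was above every FSL vehicle library for Slc16a1 (0.28 ± 0.11), beside 550 of 11750 genes tested. Pgm2, a phosphoglucomutase, was at 24.2 CPM in responders and 30.8 CPM in FSL vehicle (-0.35 ± 0.12), with overlap. Muscle-type glycogen phosphorylase, Pygm, averaged 108 CPM in FSL vehicle and was wholly lower in non-responders, at a mean of 91.8 CPM (-0.23 ± 0.09). In that comparison 366 of 11750 genes tested were wholly lower. Between the LAC groups the smallest p values belonged to Pdp1, the phosphatase that reactivates pyruvate dehydrogenase (0.54 ± 0.25), and fumarase, Fh (0.19 ± 0.09). Both were higher in every responder library than in any non-responder library, beside 677 of 11750 genes tested. Their unadjusted edgeR p values were 0.0570 and 0.0667.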

How the data were processed

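Total RNA from about 130 mg of tissue was made into stranded libraries after removal of ribosomal RNA and read as 100 bp single reads, per the labels. The authors deposited whole-number read counts per gene symbol and 5 summary lines per library, not normalized. The submitters' processing notes list, without roles, the build rn5 and edgeR 3.12.0, HTSeq 0.6.1, TopHat2 2.0.9, Trimmomatic 0.33 and FastQC 0.11.3. Neither the annotation nor the strand setting of the counter is given in those sources, so reads of a gene and of an overlapping or antisense gene are not separable here. The summary lines were left out of library sizes; reads in no gene made up 47.7% to 52.7% and reads with several alignments 24.3% to 28.4% of the reads in each file.

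Differences were tested with edgeR 4.0.16 (R 4.3.3). The 12 libraries entered 1 model with a mean for each group, TMM scaling, the default filter by group, robust quasi-likelihood dispersions and Benjamini-Hochberg adjustment over 11750 genes at a threshold of 0.05. It was tested on simulated data. The planted changes there were larger than any fitted for the enzymes in the main model, and the libraries carried no tissue differences. That test therefore does not show how often changes as small as those of the enzymes would be called. Errors after ± are standard errors (SE) for log2 fold changes and SD over 3 libraries for levels. The smallest two-sided p of an exact test of 3 libraries against 3 is 0.1, so single pairs of groups were not tested that way. Ratios used a prior count of 0.5 and all 369600 arrangements of the libraries. The labels tie no library to an animal, so p-values measure only the spread between these libraries, which may be technical. The CPM value of 3 counts given beside Eno2 covers counting error only.

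The enzymes, the other lists and the tests were chosen with earlier results of these data known. Values in every library are given for the 3 enzymes of smallest unadjusted p in each comparison and for the pairs of smallest permutation p, and other enzymes by range. Of the pathway list, the 2 genes of smallest p are named in the 3 comparisons that involve FSL vehicle and in that between the LAC groups. Per-library values of Eno1, Pdhb and Ogdh were added after they were seen. Alternatives were other scaling, filters and tools (DESeq2 1.42.0, limma-voom 3.58.1), fits of the compared groups, a replicate block, marker covariates and left-out libraries. By the rule used, an alternative fit treated the replicate numbers as pairing LAC non-responders with FSL vehicle. Their same-number libraries correlated at 0.581, 0.212 and 0.426 in deviations from the group means. The libraries numbered 1 of these groups were the 2 highest in choroid plexus markers. Libraries numbered 2 of FRL vehicle and non-responders correlated at 0.268. The main model used no pairing, and the correlations do not establish one. The labels state no pairing, and no other 2 groups met the rule. RefSeq (GRCr8) gave gene neighbours, pseudogene names and promoter sequences. No coordinates of the counts' own build were used.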

Additional observations from a re-analysis of the deposited data

How the results depend on the processing

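Median log2 fold changes of the 36 enzymes that moved by more than the spread of their mean (0.0627) were these. With the meninges covariate, FSL vehicle over FRL vehicle was -0.0916 and responders over FSL vehicle 0.0204. Without the 3 choroid-rich libraries the values were -0.0336 and 0.0148, and non-responders over FSL vehicle was -0.0903 in place of 0.0736. Leaving out each library in turn gave -0.216 to -0.0869 for FSL vehicle over FRL vehicle and 0.037 to 0.195 for responders over FSL vehicle, and 0 to 1 enzymes called in each; the ends came from FSL vehicle 2 and 3, and the call (Idh2) from leaving out FSL vehicle 1. DESeq2 called 1 enzyme over the 4 groups, Idh2. Leaving out each library gave 0 to 2 ratios past the threshold. With the replicate block the number of enzymes called stayed 0 in all comparisons, and when only FSL vehicle and non-responders were fitted with that pairing, the median was 0.0649. Of all genes tested, DESeq2 called 168 (edgeR 8) for FSL vehicle over FRL vehicle, 186 (0) for responders over FSL vehicle, 2 (0) for non-responders over FSL vehicle, 25 (10) and 28 (5) for responders and non-responders over FRL vehicle and 184 (3) over the 4 groups. Without FSL vehicle 1 edgeR called 271 and 349 genes in the first 2 comparisons and 98 over the 4 groups. Of the 3 enzymes of smallest p followed in each comparison, none reversed under these alternatives and only Idh2 crossed the threshold; other enzymes did change sign. The causes were not tested.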

Other observations

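Me1, the cytosolic malic enzyme that turns malate into pyruvate and makes NADPH, was singled out after its values were seen. It averaged 79.6 CPM in FRL vehicle, 106 in FSL vehicle, 117 in LAC non-responders and 119 in LAC responders, and all libraries of each FSL-line group were above those of FRL vehicle. Of 11750 genes tested, 890 in FSL vehicle, 867 in non-responders and 640 in responders lay wholly above FRL vehicle in this way. The log2 fold change of Me1 over FRL vehicle was 0.41 ± 0.15, 0.56 ± 0.15 and 0.58 ± 0.15 in that order. Its adjusted p values were 0.283, 0.705 and 0.648 in edgeR's quasi-likelihood test with Benjamini-Hochberg adjustment, so none passed. Pck2, the mitochondrial phosphoenolpyruvate carboxykinase, averaged 36.7 CPM in FRL vehicle and 31.1 and 30.7 CPM in LAC non-responders and responders. Both were wholly below FRL vehicle, beside 714 and 571 of 11750 genes tested, with log2 fold changes of -0.24 ± 0.10 and -0.26 ± 0.10.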
